A study of Chlorocebus aethiops with 36 samples.

Results

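The livers described here are those of 12 male African green monkeys (Chlorocebus aethiops) that had not yet been treated and ate normal chow. They were chosen by their labels as the biopsies of week -5 (baseline), and their 12 arrays are a part of the 36 in the series. Biopsies of the same animals at week 4, still on chow, and at week 12, when a diet rich in carbohydrate with moderate cholesterol had been fed for 8 weeks, make up the rest. By those times 6 of them had received an oligonucleotide against the microRNA miR-33 and 6 a control oligonucleotide, each at 5 mg/kg under the skin. The groups are thus untreated baseline livers on chow (12 arrays), anti-miR-33 and control anti-miR livers at week 4 on chow (6 each), and anti-miR-33 and control anti-miR livers at week 12 on the high carbohydrate diet (6 each). All are liver biopsies of male animals, and the replicates within a group are separate animals. The diet label of 1 of the control arrays at week 4 names the high carbohydrate diet and goes against the other 11 at that time. RNA was measured on a human expression array (Affymetrix HG-U133 Plus 2.0), so probes designed on human sequence met monkey transcripts.

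The liver makes most proteins of blood plasma, among them albumin, transport proteins, apolipoproteins and the factors of coagulation and complement. Its hepatocytes also switch between storing energy after meals, by glycogen and fatty acid synthesis, and releasing it in fasting, by glucose output and fatty acid oxidation. Enzymes that oxidise and conjugate drugs, and the transporters that move bile, complete its main gene classes. Sinusoidal endothelium, stellate cells, macrophages, bile duct cells and blood share the biopsy with hepatocytes. In such a bulk sample, fewer cells of a type and less RNA per cell cannot be told apart.

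All values are on the log2 scale, on which a difference of 1 is a doubling. Each gene is given by its brightest probe set, and 13634 of 19775 genes passed a filter at the median signal of all probe sets, 4.46. Baseline values ran from 2.43 to 15.06, array medians from 4.42 to 4.48, and the correlation of 2 baseline arrays over these genes from 0.966 to 0.990 in 66 pairs. A measure of RNA quality differed more between arrays. The signal of the 3′ control probe sets of GAPDH and ACTB minus that of the 5′ ones, which grows where RNA or its copies are shortened, averaged 2.57 ± 0.43 in the baseline arrays, against 1.94 ± 0.41 in those of week 4 and 1.83 ± 0.16 in those of week 12 (SD, n = 12 each). At baseline this 3′ minus 5′ value had 1.79, 2.64 and 3.30 as its lowest, median and highest value. The first principal component of the baseline arrays held 32.6% of the variance and correlated with it at 0.94 in size, and 15.6% of genes correlated with it above 0.7 in size (n = 12). Its values are therefore given beside many of the results below, though not all.

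The brightest genes at baseline were those of secreted plasma proteins and of the translation machinery. Of the 100 genes of highest mean signal, 26 belonged to 5 lists of secreted proteins (carriers and inhibitors, apolipoproteins, coagulation factors, complement, acute phase) and 33 to ribosomal proteins and translation factors. Another 5 were metallothioneins and 25 were in none of the 45 lists. Among the 20 brightest, 12 were secreted proteins and 4 were genes of translation. Levels of different probe sets are set side by side only as such bands of signal, because a probe that mismatches the monkey transcript reads low. At the edges of these bands, the last of the 20 genes stood at 13.50 and the next at 13.48, and the last of the 100 at 12.15 and the next at 12.13.

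APOA1, the main protein of high density lipoprotein, had the brightest single probe set, with 14.68, 14.72 and 14.76 as its lowest, median and highest value over the 12 livers. AMBP, the precursor of alpha-1-microglobulin and bikunin, had 14.60, 14.62 and 14.66. C3, the central component of complement, stood at 14.53, 14.56 and 14.61. The 12 animals were almost alike in these genes, all of which lie near the top of the array's range. TTR, which carries thyroid hormone and retinol-binding protein, averaged 14.10 ± 0.072 (SD, n = 12), and ALB, the most abundant plasma protein, averaged 13.85 ± 0.061. HPX, which binds free heme, APOH, a phospholipid-binding plasma protein, and RBP4, the retinol carrier, averaged 13.79, 13.71 and 13.71. CFB of the alternative complement pathway averaged 13.64, the antithrombin gene SERPINC1 13.63, APOA2 13.53 and ITIH3, a heavy chain of the inter-alpha inhibitor family, 13.53. Of the plasma carriers and inhibitors, 15 of 25 tested genes lay in the top 1% of signal and 22 in the top 5%, against 3 and 13 of 20 for complement and 5 and 10 of 19 for coagulation factors.

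A gene's other probe sets did not always give its level. The 3 further probe sets of ALB averaged between 7.48 and 12.73, those of APOA1 between 4.84 and 14.51. The other SERPINC1 probe set averaged 12.01 and varied more (SD 0.43 against 0.15), while correlating with the brighter one at 0.96 over the 12 livers.

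Ribosomal protein genes were bright and even. Of 52 tested, 34 lay in the top 1% and 49 in the top 5%, with a median level of 12.21 and a median SD of 0.097. RPL37A and RPL23A averaged 14.02 and 13.60, while TPT1, a translationally controlled protein, averaged 14.34 and EEF1A1, which delivers aminoacyl-tRNA to the ribosome, 14.09. Many ribosomal protein genes have near-identical processed copies that the same probes can read. Metallothioneins, small proteins that bind zinc and copper, gave 6 of 9 members in the top 1%. MT2A stood at 13.24, 13.57 and 13.84 and MT1X at 13.20, 13.51 and 13.74 over the 12 livers, and their sequences are so alike that the probes may not separate them. FTL, the light chain of the iron store ferritin, averaged 13.73 ± 0.052, and HUWE1, a large ubiquitin ligase, 13.79 ± 0.040.

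Metabolic classes lay mostly in the bands below. Of the genes of oxidative phosphorylation 44 of 51 lay in the top 25% and 2 in the top 1%, and of the proteasome 23 of 25 and 0. Fatty acid oxidation and ketogenesis gave 22 of 26 in the top 25%, phase I drug metabolism 24 of 30, and urea cycle and amino acid breakdown 22 of 32. In the top 1% these classes had 2, 3 and 2 genes. Fatty acid synthesis gave 9 of 17 and cholesterol synthesis 8 of 18 in the top 25%, with none of either in the top 1%. ASS1 of the urea cycle averaged 13.24 and CYP3A4, a major drug-oxidising cytochrome, 12.58. The iron hormone HAMP, made by hepatocytes, stood at 10.46, 11.92 and 12.29 over the 12 livers.

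Hepatocyte markers stood highest among the lists of cell type markers. They had a median percentile of 0.631 from the top (12 genes, 11 in the top 25%), stellate cell and matrix genes 17.6, macrophage genes 33.8 and endothelial genes 45.9. Bile duct markers lay at 63.5, neutrophil markers at 61.9, T and NK cell markers at 72.4, cell cycle genes at 80.2, skeletal muscle at 78.2, and skin and mesothelium at 81.5. No gene of the last 6 lists reached the top 1%. The beta globin gene HBB, from red cells in the biopsy, did, at 10.80, 12.00 and 13.22.

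**Figure D1:**
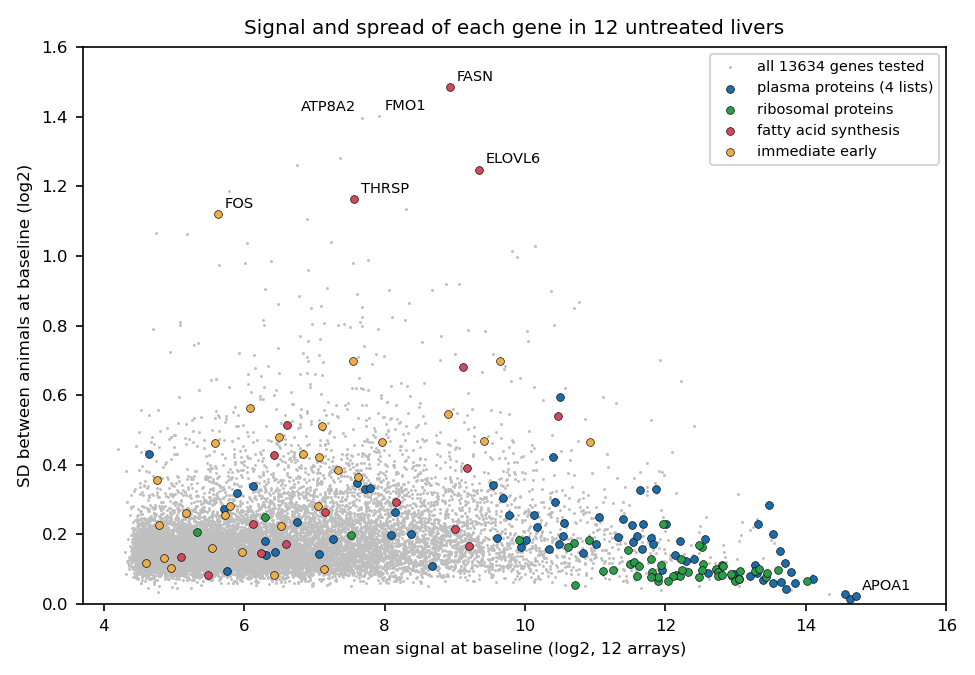
Each point is 1 gene, with its mean signal over the 12 baseline arrays (log2) on the horizontal axis and its SD over the same arrays (log2) on the vertical axis. Most plasma protein and ribosomal genes (blue and green) sit in the right part with SDs mostly under 0.4, while fatty acid synthesis and immediate early genes (red and orange) lie at moderate signal and reach an SD of 1.49 at FASN.

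Most genes differed little between the untreated animals. The SD over the 12 livers had quartiles of 0.128, 0.161 and 0.213 and a 95th percentile of 0.371. An SD above 0.5 was seen for 245 genes (1.80%), and above 1 for 18. The 20 brightest genes had a median SD of 0.064, the 100 brightest 0.111, the genes between the top 5% and 25% of signal 0.186 and the lower 50% of genes 0.154. Across genes the level and the SD had a Spearman correlation of 0.15 (genes are not independent). The 25 most variable genes described below had mean levels from 4.74 to 10.14, and the rule that ranked them used their SD, so their values are a description. The last of the 25 had an SD of 0.959 and the next gene 0.920.

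The classes with most variable members were lipogenic, immediate early, acute phase and fasting genes. Among the 5% of genes with the largest SD were 8 of 17 tested genes of fatty acid synthesis, 14 of 29 immediate early genes, 5 of 11 acute phase genes and 9 of 20 genes of the fasting and glucocorticoid response. Bile acid genes gave 6 of 16, stellate cell and matrix genes 6 of 18, glucose metabolism 6 of 19 and endothelial genes 5 of 20. Drug metabolism gave 7 of 30 in phase I and 6 of 25 in phase II, and cholesterol synthesis 4 of 18. None of 52 ribosomal, 19 coagulation, 15 translation factor, 12 hepatocyte marker and 9 metallothionein genes was among them. The mean standardised values of a list correlated with the 3′ minus 5′ value at -0.82 for glucose metabolism and -0.81 for fatty acid synthesis (n = 12). Those of phase I, phase II and bile acid genes did so at -0.76, -0.64 and -0.74. For immediate early, acute phase and fasting genes the values were 0.06, -0.08 and 0.21. Stellate cell, endothelial and cholesterol synthesis genes gave 0.32, 0.22 and -0.24.

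Fatty acid synthesis held the most variable gene. FASN, the enzyme that builds palmitate, had 6.91, 8.80 and 11.24 as its lowest, median and highest value, a span of 20.1-fold and an SD of 1.49. ELOVL6, which lengthens palmitate, had 6.97, 9.15 and 11.07. THRSP, a nuclear protein tied to lipid synthesis, had 5.30, 7.79 and 9.29. The spread of FASN did not come from a single array, since without any 1 array its SD lay between 1.36 and 1.56. SCD, which adds the double bond to stearate, had 8.46, 8.91 and 10.63, and SREBF1, the transcription factor of lipid synthesis, 5.82, 6.52 and 7.81. SREBF2, its counterpart for cholesterol, was nearly constant at 6.82, 6.91 and 7.12. FASN, ELOVL6 and THRSP were lower in livers with a high 3′ minus 5′ value (r = -0.84, -0.80 and -0.77, n = 12), and after a line on that value their SDs were 0.83, 0.78 and 0.78. A dimmer FASN probe set (mean 5.70) had an SD of 0.20 and correlated with the brighter one at -0.58, whereas the other probe sets of ELOVL6 and THRSP correlated with theirs at 0.94 to 0.99.

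Among the enzymes of drug and alcohol metabolism the spread had another form. FMO1, a flavin monooxygenase, had 4.23, 8.28 and 9.20, and UGT3A1, a sugar-transferring conjugation enzyme, 6.92, 10.17 and 10.58. In both the median lay near the top of the range, and without 1 array the SDs of 1.40 and 1.01 were 0.82 and 0.47. ADH4, an alcohol and retinol dehydrogenase, spread more evenly over 8.44, 10.26 and 11.79 (SD 1.03, r with the 3′ minus 5′ value -0.72). ADH6 had 8.68, 11.21 and 11.47. Of the conjugating enzymes, UGT1A6 had 4.96, 6.30 and 7.67 and SULT1E1, the estrogen sulfotransferase, 5.26, 7.00 and 8.60. ADH6, UGT1A6 and SULT1E1 correlated with the 3′ minus 5′ value at -0.50, -0.67 and -0.61, FMO1 and UGT3A1 at -0.31 and -0.23.

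Regulators of fasting and glycogen varied too. PPARGC1A, the coactivator that drives glucose output in fasting, had 6.29, 7.92 and 9.18. PPP1R3B, which brings a phosphatase to glycogen, had 8.30, 10.06 and 11.81. ZBTB16, a glucocorticoid-responsive repressor, had 7.28, 9.54 and 10.06, and CPT1A, which admits fatty acids to mitochondria, 5.34, 7.03 and 7.68. PPARGC1A, PPP1R3B, ZBTB16 and CPT1A correlated with the 3′ minus 5′ value at 0.57, -0.63, 0.54 and 0.76. PCK1, the rate-limiting enzyme of gluconeogenesis, was far steadier at 9.07, 9.42 and 9.75. PSAT1, an enzyme of serine synthesis, had 6.03, 7.50 and 9.44, with the closest tie to RNA quality among the 25 (r = -0.95), and its SD of 0.98 was 0.33 after the line. IGF1, the growth hormone target, had 8.73, 10.55 and 11.36 (r = -0.84).

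Stress and immediate early genes made up the next set. FOS, a subunit of the AP-1 factor that cells switch on within minutes of a stimulus, had 4.38, 5.37 and 8.48. Most livers lay near the low end, and without 1 array the SD of 1.12 was 0.70. EGR1 and DUSP1, which respond on a like time scale, had 8.32, 9.81 and 10.68, and 6.70, 7.38 and 9.41. RGCC, a cell cycle regulator, had 3.90, 5.82 and 8.01, and GDF15, a stress-induced hormone, 4.01, 4.91 and 7.32. ARRDC3, an arrestin-like adaptor of receptor traffic, had 5.12, 7.13 and 8.02. FOS, EGR1, DUSP1 and ARRDC3 correlated with the 3′ minus 5′ value at -0.52, -0.47, -0.49 and -0.54, RGCC and GDF15 at -0.16 and 0.29. The acute phase gene CRP had 8.54, 9.38 and 9.96 and LCN2, an iron-sequestering defence protein, 5.17, 5.96 and 7.37.

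Genes of other cell types in the biopsy were among the variable ones. COL1A1, a chain of the type I collagen of stellate cells, had 6.59, 8.20 and 10.52, and ACTA2, smooth muscle actin, 5.42, 7.00 and 8.10. Both correlated with the 3′ minus 5′ value (0.60 and 0.57). The immunoglobulin light chain gene IGLC1 had 8.90, 9.87 and 11.70, and the bile duct marker EPCAM 4.47, 4.78 and 6.22. Over whole lists, the mean of the 18 stellate cell and matrix genes ran from 7.39 to 8.13, that of 20 endothelial genes from 6.40 to 6.96, that of 10 macrophage genes from 6.65 to 7.28 and that of 12 hepatocyte genes from 11.57 to 11.74. The part of cell makeup in any single gene was not tested.

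The rest of the 25 most variable genes had no common class. ATP8A2, a phospholipid flippase, had 4.88, 8.12 and 9.52, CNN3, an actin-binding calponin, 5.33, 6.68 and 8.84, and SLC38A1, a glutamine transporter, 4.70, 5.97 and 8.53. Their correlations with the 3′ minus 5′ value were 0.19, 0.69 and -0.26. PLA2G1B, a secreted phospholipase, had 4.57, 6.92 and 8.74, PBLD 5.40, 7.30 and 9.06, the ciliary gene CFAP91 3.72, 6.07 and 7.67, and the anoctamin ANO4 4.24, 5.87 and 7.21. A further 4 genes split the animals into separate clusters, with a gap of over 30% of the range and at least 3 animals on each side. Gaps as wide were seen in others of the 25, such as UGT3A1, FMO1 and SLC38A1, but with only 1 or 2 animals on a side. CAPSL, a calcium-binding protein gene, had 7 livers between 5.60 and 6.73 and 5 between 8.38 and 9.36. GINS4, of the complex that opens DNA for replication, had 8 between 5.12 and 5.66 and 4 between 7.24 and 7.49. PLCZ1, known as a phospholipase of sperm, had 9 between 3.58 and 5.28 and 3 between 6.25 and 6.38, and the cadherin gene CDH11 had 3 between 4.74 and 5.21 and 9 between 6.15 and 7.65.

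**Figure D2:**
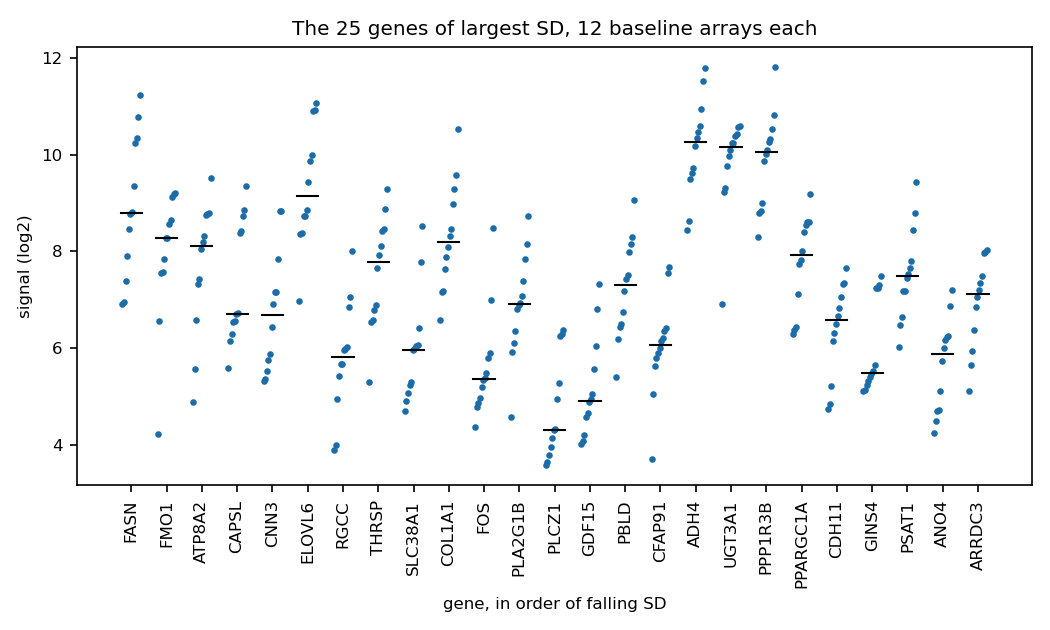
The 25 genes of largest SD are given from left to right in order of falling SD, with the signal (log2) of the 12 baseline arrays as points and their median as a bar. FASN and COL1A1 spread over their ranges, CAPSL and GINS4 fall into separate clusters, and UGT3A1, FMO1 and ELOVL6 have 1 array well below the other 11.

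Other probe sets of the same gene often varied alike, though not always. Among the 100 most variable genes 44 had another probe set above the filter, and for 34 of these the best correlation over the 12 livers exceeded 0.5 (median 0.812). Over all genes 5534 had another probe set and 2026 a best correlation above 0.5 (median 0.341). The other probe sets of ATP8A2 correlated with the one shown at 0.89 and 0.96, those of SLC38A1 at 0.26 and 0.96. The other CNN3 probe set was dim (mean 4.62) and correlated at -0.79.

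The most variable genes fell into 9 groups that varied together. Of the 200 genes of largest SD (the last at 0.534, the next at 0.533), 151 joined groups of 5 or more when linked at an average correlation of 0.5. For comparison, 8.35% of all gene pairs correlated above 0.5 and the median pair at -0.0005 (n = 12 livers). The groups were formed on the baseline values, so their correlations there are a description. The 24 later arrays, centred on their arm and time, did not define them and are given as a second reading of the same animals, in which 3.14% of all pairs exceeded 0.5.

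Group 1 was the largest, with 82 genes and a median pair correlation of 0.72. It joined the lipogenic genes FASN, ELOVL6 and THRSP, the glycogen gene PPP1R3B, the serine enzyme PSAT1, the growth factor IGF1, the bile salt pump ABCB11, the alcohol dehydrogenase ADH4 and the glutathione transferase MGST1. Its genes of highest mean correlation were DLD, a subunit of mitochondrial dehydrogenases, the selenoprotein SELENOT, CMAHP, CHPT1 and CMAS of lipid and sialic acid metabolism, and EMC2 of the endoplasmic reticulum. The mean of the group followed the 3′ minus 5′ value at -0.94 over the 12 livers and at -0.71 in the later arrays. Its median pair correlation was 0.27 after a line on that value and 0.29 in the later arrays.

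The partners of FASN were followed one by one, and of those named ELOVL6, THRSP, IGF1 and PSAT1 are in group 1. FASN correlated with ELOVL6 at 0.95 over the baseline livers, 0.85 after the 3′ minus 5′ line and 0.94 in the later arrays. With THRSP the values were 0.90, 0.73 and 0.75, with SCD 0.81, 0.76 and 0.86, and with ACLY, which supplies acetyl-CoA, 0.85, 0.79 and 0.75. Not all lipid genes went with it: with ME1, the malic enzyme, the values were 0.23, -0.01 and 0.35, and with PNPLA3, a lipid droplet protein, -0.36, -0.78 and 0.45. Other partners of FASN at baseline were not partners later: the values were 0.80, 0.33 and -0.05 with IGF1 and 0.85, 0.31 and 0.14 with PSAT1. These pairs were chosen after their values were seen. Over all 17 genes of the fatty acid synthesis list the median pair correlation was 0.46 at baseline, 0.22 after the line and 0.51 in the later arrays.

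Group 2 ran against group 1, and its 22 genes had a median pair correlation of 0.69. Of the 22, 3 were in the list of the fasting and glucocorticoid response. Among its genes were PPARGC1A, CPT1A, ZBTB16, the activin subunit INHBB and MFSD2A, a carrier of lysophospholipids. Its leading genes also included ZPR1, BUD13 and APOA5, a regulator of plasma triglyceride, which are neighbours in the human genome. ZPR1 correlated with APOA5 at 0.93 at baseline and 0.90 later, BUD13 with APOA5 at 0.91 and 0.81, and PPARGC1A with PCK1, outside the group, at 0.90 and 0.78. The group mean correlated with the 3′ minus 5′ value at 0.75 at baseline and at -0.07 in the later arrays, and the median pair correlation was 0.53 after the line and 0.52 in the later arrays. The means of groups 1 and 2 correlated at -0.85 at baseline, -0.65 after the line and -0.36 later. FASN and CPT1A, enzymes of fatty acid synthesis and oxidation, correlated at -0.79 at baseline, -0.42 after the line and -0.63 later.

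**Figure D3:**
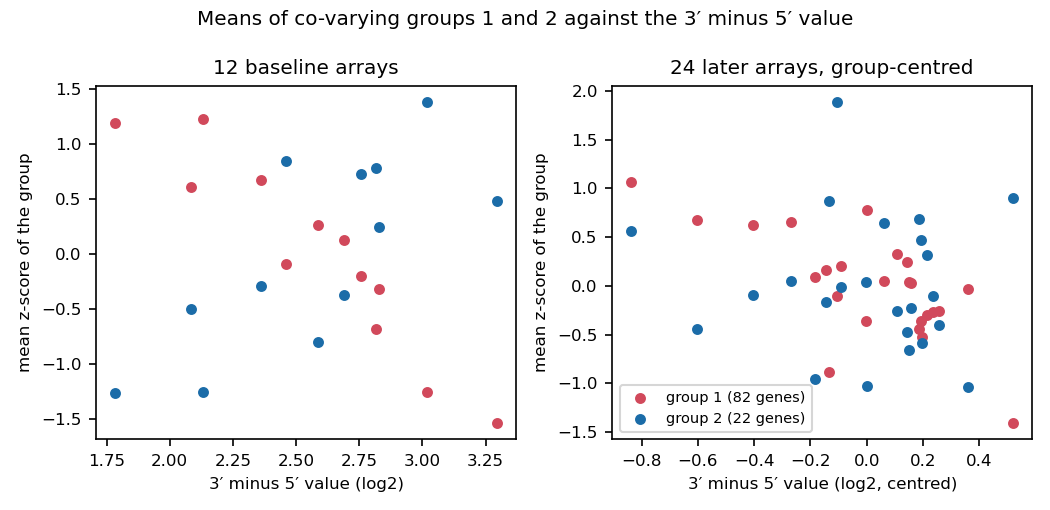
The mean z-score of co-varying groups 1 (82 genes, red) and 2 (22 genes, blue) is plotted against the 3′ minus 5′ value (log2) for the 12 baseline arrays on the left and for the 24 later arrays, centred on their arm and time, on the right. At baseline group 1 falls and group 2 climbs along the axis (r = -0.94 and 0.75), and in the later arrays the values are -0.71 and -0.07.

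Group 3 had 12 genes, with a median correlation of 0.69 at baseline and 0.44 later. It held GDF15, NOCT, a circadian nocturnin, the histone demethylase KDM3A, the citrate carrier SLC13A5, PRODH of proline breakdown, DDIT4, CCND1, LCN2 and RRM2. GDF15 and NOCT correlated at 0.84 at baseline and 0.60 later. Its mean tied to that of group 2 at 0.65 at baseline and 0.69 later, and weakly to the 3′ minus 5′ value (0.39).

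The smaller groups were mixed, apart from groups 6 and 9. Group 6 held the immunoglobulin genes IGLC1, IGLV1-44, IGLL3P and IGHM, with GUSBP11 and ZNF711, and its median correlation was 0.76 at baseline and 0.72 in the later arrays. The light chain probe sets can read the same transcripts, but IGLC1 and the heavy chain gene IGHM also correlated at 0.74 and 0.75. Group 9 joined the immediate early genes FOS, EGR1, JUNB and DUSP1 with RGCC at 0.73, against 0.29 later. In it FOS and EGR1 kept together (0.77 at baseline and 0.81 later), while FOS and RGCC did not (0.69 and 0.09). Group 5 (CDH11, KIT, ADAMTS5, FGF13, ECRG4 and SYT9) had 0.70 at baseline and 0.14 later. Group 4 held SCD with GPC3, PIGR, MRAP2, ETNPPL and PLCZ1 (0.64 and 0.44). Group 7 held IGFBP2, BEX1, WFDC1, TUBA1A and CYFIP2 (0.61 and 0.31), and group 8 ADH6, PBLD, PSMB3, HAS3 and RTN1 (0.60 and 0.42). The means of groups 4 and 8 correlated with the 3′ minus 5′ value at -0.54 and -0.69 at baseline and -0.44 and -0.60 later. After the line their median pair correlations at baseline were 0.59 and 0.44. Means of groups 5, 6, 7 and 9 correlated with that value at 0.11, 0.27, 0.46 and -0.41 at baseline. In the later arrays these were -0.08, -0.08, 0.12 and 0.02.

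Pairs within other lists were read in the same way. The 9 metallothioneins had a median pair correlation of 0.82 at baseline and 0.80 later, and the 52 ribosomal genes 0.44 and 0.56. The 10 macrophage markers had 0.42 and 0.30 and the 18 stellate cell and matrix genes 0.36 and 0.41, with COL1A1 and COL1A2 at 0.87 and 0.74. The red cell genes HBB and ALAS2 correlated at 0.81 and 0.70.

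**Figure D4:**
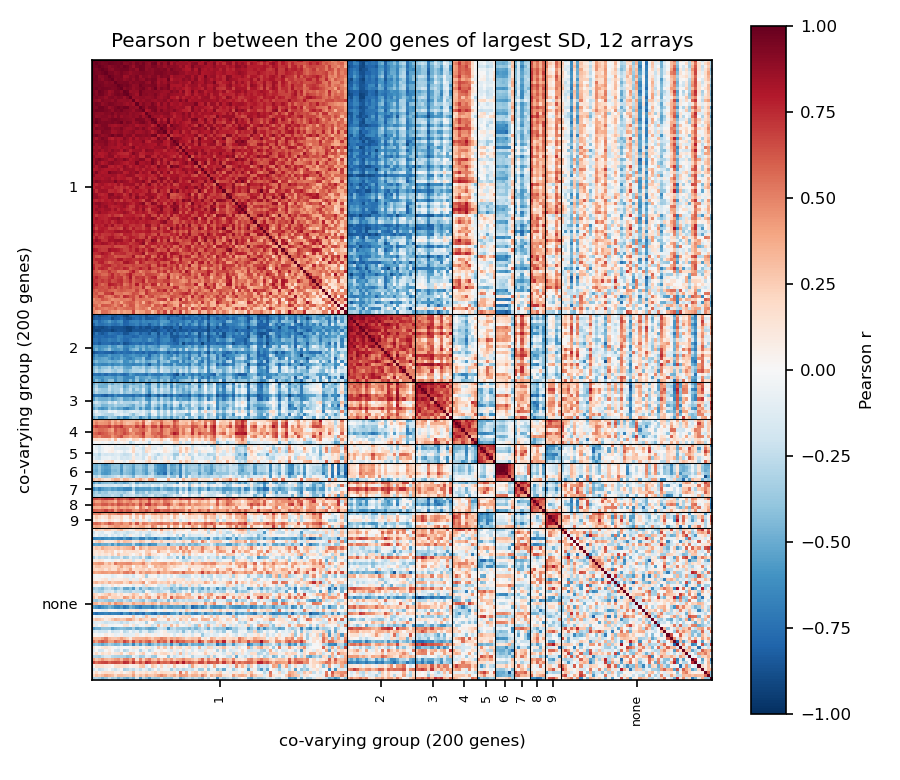
Each cell is the Pearson correlation of 2 of the 200 most variable genes over the 12 baseline arrays, from -1 (blue) to 1 (red), with genes ordered by co-varying group (1 to 9, then those in no group). Group 1 (82 genes) forms the largest red block and group 2 (22 genes) is blue against it.

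Whether animals differed from each other alike at both later times was asked in the 24 later arrays, which had not ranked the genes. The F test below used no baseline array, so a call alone does not show that a baseline difference lasted. That was read from the correlation of an animal's baseline with its later values. A limma F test of animal within arm, with Benjamini-Hochberg adjustment over all genes, called 931 of 13634 genes at 0.05 (6.83%). Among the 25, 100 and 200 genes most variable at baseline, 20, 69 and 118 were called, and in the most variable 25% of genes 739 of 3408 (21.7%). The baseline and later values of an animal, centred on the arm, had a median correlation of 0.64 over the 100 most variable genes and of 0.19 over all genes. All of these arrays come from the same 12 animals and tissue, so the count describes these animals.

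Differences in several enzymes and transporters were found again at the later times. The adjusted p of the limma F test was 2.78e-10 for UGT3A1, 1.75e-09 for ATP8A2 and for CNN3, 3.01e-09 for SLC38A1 and 9.00e-09 for FMO1. The correlation of baseline with later values was 0.99 for ATP8A2 and UGT3A1, 0.98 for CNN3, 0.95 for FMO1 and 0.94 for SLC38A1, with Spearman values of 0.96, 0.97, 0.98, 0.86 and 0.90 (permutation within arms, adjusted p from 0.00025 to 0.0018, n = 12). Without the 2 animals farthest from the median baseline value these correlations were 0.98, 0.92, 0.98, 0.73 and 0.85. ANO4 and PBLD gave 0.89 and 0.87, CFAP91 0.79 and ADH4 0.70, with adjusted permutation p of 0.0029, 0.0021, 0.038 and 0.032. Their Spearman values were 0.80, 0.80, 0.67 and 0.54, and by these CFAP91 and ADH4 missed the threshold (adjusted permutation p 0.088 and 0.13). Without the 2 farthest animals the correlations were 0.90, 0.78, 0.57 and 0.56. Of the 21 among the 25 genes without separate clusters, 9 passed the permutation test of the Pearson correlation. For the 4 genes with clusters no pooled value is given. Within the larger cluster the correlation was 0.79 for CAPSL (n = 7), 0.86 for GINS4 (n = 8), 0.84 for PLCZ1 (n = 9) and 0.60 for CDH11 (n = 9), untested, and the limma F test called all 4.

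The lipogenic and immediate early genes behaved otherwise. FASN, ELOVL6 and THRSP gave baseline-to-later correlations of 0.25, 0.30 and 0.37 (adjusted permutation p 0.49, 0.45 and 0.40, n = 12). The limma F test still called them as different between animals within the later arrays, at adjusted p of 0.0038, 0.0031 and 0.017, that of THRSP being 0.081 without replicate 6. FOS gave -0.09 and RGCC -0.08 (adjusted permutation p 0.80 and 0.81). The F test called RGCC (adjusted p 0.00014) but not FOS (0.20). FASN tracked week 4 at 0.54 and week 12 at 0.03, and THRSP at 0.64 and 0.02.

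Beyond the 25, other genes of smallest p in the F test were RAMP1, a receptor-modifying protein, BBOX1 of carnitine synthesis and ADH6, with adjusted p of 3.36e-09, 1.71e-08 and 2.72e-08 and baseline-to-later correlations of 0.98, 0.96 and 0.98 (n = 12, descriptive). ECI2, an enzyme of fatty acid oxidation, correlated at 0.97, EPCAM at 0.96 and PSMB3, a proteasome subunit, at 0.95. By class, 10 of 17 fatty acid synthesis genes, 6 of 11 acute phase genes, 11 of 23 genes of the unfolded protein response, 11 of 26 of fatty acid oxidation, 11 of 30 of phase I and 9 of 20 of the fasting response were called. Fewer were called among the 29 immediate early genes (3) and the 52 ribosomal genes (1), and none among the 12 hepatocyte markers and the 9 metallothioneins. In groups 4, 5, 6 and 8 all of the 8, 6, 6 and 5 genes were called, against 31 of 82 in group 1 and 2 of 5 in group 9. Counts by class and by group are calls of the F test, which used the later arrays only. The counts by class stand against 6.83% of all genes and 21.7% of the most variable 25%. Those by group stand against 59% of the 200 most variable genes, from which the groups were cut. Of the 49 genes among these in no group, 40 were called (81.6%), so groups 1 and 9 lay below both shares.

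**Figure D5:**
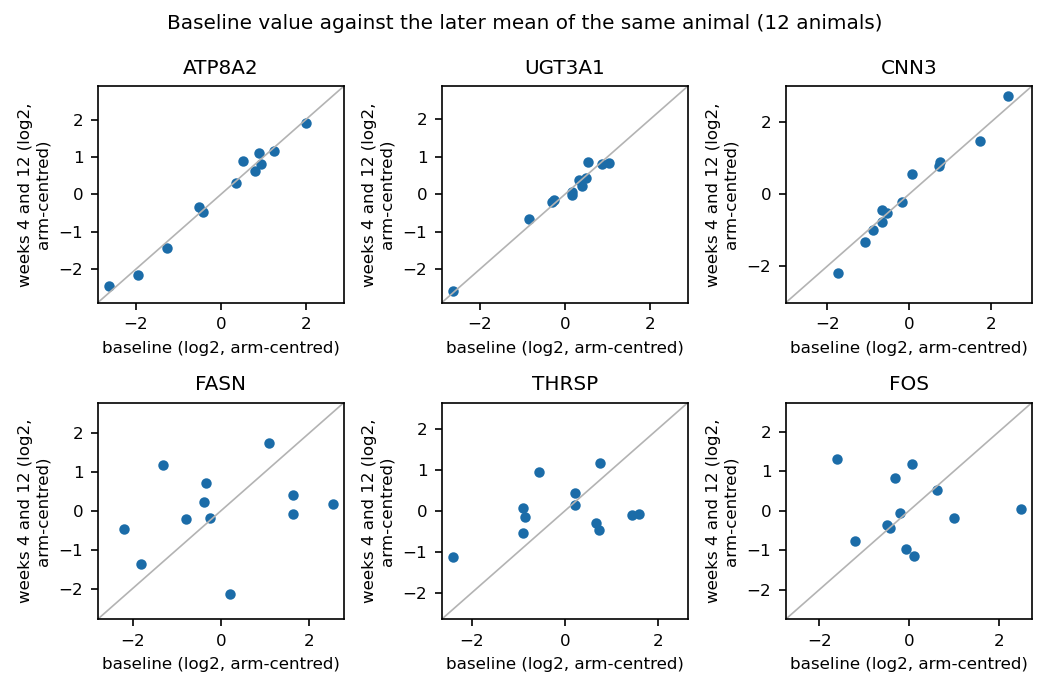
For 6 of the 25 most variable genes, the baseline value of each animal (log2, horizontal axis) is plotted against the mean of its week 4 and week 12 values (log2, vertical axis), both centred on the arm, with the line of equality in grey. ATP8A2, UGT3A1 and CNN3 lie along the line (r = 0.99, 0.99 and 0.98), whereas FASN, THRSP and FOS scatter (0.25, 0.37 and -0.09).

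Set against the later biopsies of the same animals, baseline livers were higher in most endothelial genes and in many stellate cell and matrix genes, and lower in most interferon response genes. All 36 arrays were fitted in limma with the animal as a random block, and both arms were averaged. Baseline was higher than week 4 in 20.6% of genes and lower in 15.1% (35.7% in all). It was higher than week 12 in 16.5% and lower in 10.9% (27.4% in all), always at an adjusted p under 0.05. The median difference over all genes was 0.01 in both comparisons. Time, treatment, diet at week 12 and the 3′ minus 5′ value changed together between these groups, and the identifiers of the week 4 arrays come from another number block than the others, so these cannot be told apart. With the 3′ minus 5′ value as a covariate in the limma fit, 3439 genes instead of 4871 were called against week 4 and 766 instead of 3739 against week 12. Of the 13634 genes, 2167 were then higher and 1272 lower at baseline against week 4, and 643 and 123 against week 12. The counts with the covariate given below for lists stand beside these.

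Endothelial genes were higher at baseline. Of 20 tested, 16 were higher and 1 lower than at week 4, and 15 higher and 0 lower than at week 12, with median differences of 0.62 and 0.65. With the covariate 13 and 10 were higher. EFNB2, an arterial ephrin ligand, had 7.29, 7.96 and 8.90 as its lowest, median and highest value at baseline and averaged 7.99 ± 0.54 there, against 6.30 ± 0.27 in week 4 and 6.34 ± 0.32 in week 12 livers (SD, n = 12 each). The limma difference was 1.69 ± 0.13 (SE, adjusted p 4.12e-11) from week 4 and 1.64 ± 0.13 (adjusted p 3.52e-11) from week 12. TIE1, an endothelial receptor, averaged 7.20 at baseline, 5.93 at week 4 and 5.63 at week 12, and FCN2, a ficolin of the lectin pathway, 10.44, 9.11 and 8.97. HEY1, a Notch target, was higher than at week 4 by 1.34 ± 0.13 in limma (adjusted p 1.73e-09). Stellate cell and matrix genes gave 11 of 18 higher and none lower in both comparisons (7 and 7 with the covariate). Macrophage genes were higher in 5 and 3 of 10, beside 20.6% and 16.5% of all genes, and lower in 0 and 1. With the covariate none of them was higher, and 0 and 1 were lower. CETP, the cholesteryl ester transfer protein, was higher by 1.58 ± 0.15 and 1.55 ± 0.15 (limma, adjusted p 8.37e-10 and 1.77e-09), and the leukocyte phosphatase PTPRC by 1.40 ± 0.16 and 0.75 ± 0.16 (limma, adjusted p 3.02e-08 and 0.00047). Of the lists of white cells, that of macrophages went with PTPRC against week 4 (5 of 10 higher, 0 lower), and the others did not. Of 14 T and NK cell genes 1 was higher and 3 lower, of 10 B and plasma cell genes 0 and 2, and of 5 neutrophil genes 0 and 3.

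Ribosomal genes were higher at baseline in 39 of 52 and lower in 1 against week 4, with a median difference of 0.16, and higher in 15 and lower in 2 against week 12, with one of 0.08. Interferon response genes ran the other way: 0 of 29 were higher, 19 were lower than at week 4 and 22 lower than at week 12, with medians of -0.29 and -0.39. With the covariate 12 and 14 were lower. IFI44, an interferon-induced protein, had 7.49, 8.44 and 9.05 at baseline and differed by -1.03 ± 0.17 and -1.11 ± 0.17 (limma, adjusted p 1.43e-05 and 6.56e-06). Genes of MHC class I and the immunoproteasome were lower in 6 and 10 of 14 and higher in none (lower in 3 and 6 with the covariate). HLA-DRA of MHC class II averaged 6.46 at baseline, 7.24 at week 4 and 7.88 at week 12. In its list 2 of 13 genes were lower than at week 4, beside 15.1% of all genes. Against week 12 the list had 5 lower, beside 10.9% of all genes, and 0 were higher in either comparison (lower in 1 and 5 with the covariate).

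Among lipid genes, SCD averaged 9.11 ± 0.68 at baseline against 11.33 ± 0.83 at week 12, a limma difference of -2.22 ± 0.25 (SE, adjusted p 2.9e-08), and 7 of 17 fatty acid synthesis genes were lower at baseline than at week 12 and none higher (3 and 0 with the covariate). HMGCS1 and SQLE of cholesterol synthesis were higher at baseline by 1.08 ± 0.20 and 0.67 ± 0.14 (limma, adjusted p 8.15e-05 and 0.00034), in a list where 7 of 18 were higher and 2 lower (5 and 0 with the covariate). Fatty acid oxidation genes were higher in 10 and lower in 2 of 26 against week 4, and higher in 10 and lower in 5 against week 12 (9 and 2, and 3 and 0, with the covariate). HBB was higher at baseline than at week 12 by 1.37 ± 0.23 (limma, adjusted p 2.01e-05) and differed from week 4 by -0.21 ± 0.23 (adjusted p 0.48).

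Several of the genes lower at baseline also correlated with the 3′ minus 5′ value. PSAT1, CMAHP and SELENOT differed from week 4 by -1.73 ± 0.24, -1.28 ± 0.18 and -1.20 ± 0.19 in limma (adjusted p 1.17e-06, 1.17e-06 and 5.13e-06), ADH4 by -1.15 ± 0.24 and YIPF5 by -1.07 ± 0.17. Over the 12 baseline livers their correlations with the 3′ minus 5′ value were -0.95, -0.95, -0.97, -0.72 and -0.98. With that value as a covariate ADH4 lost its call from week 4 (-0.39). Against week 12, PSAT1 (-0.06), THRSP (-0.51, from -1.39 ± 0.31) and RGCC (-1.39, from -1.80 ± 0.37) lost theirs, with baseline correlations of -0.95, -0.77 and -0.16.

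Few genes were called as differing in spread between baseline and the later times, though the median spread was larger at week 4. The median SD within an arm over all genes was 0.161 for baseline, 0.197 for week 4 and 0.166 for week 12. The median difference in absolute deviation was -0.026 from week 4 and -0.0033 from week 12. A limma test on absolute deviations called 7 genes against week 4 (0.0513%), of which 1 spread more at baseline (0.00733%), IER5L, and 6 less (0.044%), namely LINC00662, GJD2, CDC26, RAD51D, APOO and CCDC12. The calls against week 4 depend on single animals: none was made without replicate 3 or 9, and 28 were made without replicate 6. With the animal as a fixed replicate block, or with the 3′ minus 5′ covariate, the count was 0. It called 0 genes against week 12 (0%). At an unadjusted p under 0.05 the same test gave 1933 genes against week 4 and 1137 against week 12. THRSP, for instance, had an SD of 1.16 at baseline, 0.72 at week 4 and 0.79 at week 12, and its difference in spread missed the threshold (limma, adjusted p 0.26 and 0.66).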

How the data were processed

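Per the labels' protocols, RNA of the biopsies came from a Trizol extraction and was labelled with biotin by an Enzo kit. The authors deposited log2 values of 54675 probe sets for 36 arrays, made with RMA (background correction, normalization between arrays, summary of probes) per the submitters' processing notes. Whether RMA was run once over the 36 arrays is not given in the sources used here, and 0 columns were left unused. Array number limits precision.

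Gene names came from the platform annotation: 41097 probe sets had 1 gene, 1801 several and 11777 none listed. The brightest probe set stood for a gene, kept at or above the median signal of 4.46. Levels, spread and lasting differences (animals within the later arrays) were fitted in limma 3.58.1 (R 4.3.3) over 13634 genes with Benjamini-Hochberg adjustment at 0.05. The animal was a random block (correlation 0.151), paired by the animal identifiers in the labels. Baseline against later values used 100000 permutations within arms, adjusted over 25 genes. On simulated data with 200 changed genes of 13634, the level test (week 4) recovered 99% of log2 shifts of 1, with 13 false calls. The spread test (week 4) recovered 66% of genes spread 4 times as much, with 19 false calls. The lasting test recovered 66.5% of animal effects with 2 times the residual SD, with 6 false calls. These shares are not comparable.

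Named were the 20 brightest and the 25 most variable genes, up to 4 most variable members per list, up to 6 leading genes per co-varying group, the 5 largest called differences per direction, the 10 of smallest p in the F test, and fixed genes (ALB, ABCA1, SREBF1, SREBF2). ACLY, COL1A2 and some other partners were chosen after their values were seen. The members, lists and rules were chosen with earlier results of these data known. Alternatives covered filters, probe set choice, centring, the block, RNA quality and each animal left out.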

Additional observations from a re-analysis of the deposited data

How the results depend on the processing

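The count of 245 genes with an SD above 0.5 was 112 with the mean of all probe sets per gene, 152 after a line on the 3′ minus 5′ value and 214 to 270 without each animal in turn. The first of these settings shared 8 of the 25 and 50 of the 100 most variable genes with the list described, the second 19 and 79. The largest co-varying group of 82 genes had 25 after the same line. Ribosome and translation genes among the 100 brightest numbered 20 instead of 33 with the mean of all probe sets, and secreted proteins stayed at 26 in the settings run. Calls against week 12 were 766 with the 3′ minus 5′ covariate and 3121 to 3887 without each animal, those against week 4 4249 to 4820 without each animal. The animals are paired by the labels, and the replicate block changed these counts little: 4233 and 3162 with no block, 4915 and 3843 with a fixed block. The 7 genes of differing spread from week 4 were 17 with no filter, 2 with a filter at the 75th percentile, 4 with the mean of probe sets, 0 with the covariate, 0 with a fixed replicate block and 0 to 28 without each animal (0 without baseline replicate 3 or 9, 1 without replicate 10, 28 without replicate 6). Against week 12 this count was 0 to 3 without each animal. Lasting differences between animals over weeks 4 and 12 gave 931 genes. The count was 680 to 985 without each animal, 659 with the mean of probe sets and 799 with the covariate. One week 12 array had a maximum of 13.8 where the others reached 14.99 to 15.03, and without its animal 839 lasting differences and 3213 calls against week 12 were found. At week 4 the array maxima ran from 14.28 to 15.07, and at baseline from 15.02 to 15.06. The 13 of 25 genes past the test of baseline against later values, clustered genes included, were 10 without the 2 farthest animals and 10 by Spearman. The causes of these shifts were not tested. None of the genes named for the largest level differences changed sign in these settings, and the F test of lasting differences has no direction. Without the 2 farthest animals the correlation of baseline with later values went from 0.30 to -0.18 for ELOVL6. For PSAT1 it went from 0.59 to -0.085. THRSP, PPP1R3B and PPARGC1A were not called as lasting with the mean of probe sets (adjusted p 0.060, 0.097 and 0.098 in limma), COL1A1 and PSAT1 were called with the covariate (0.049 and 0.035), and YIPF5 lost its call from week 4 with the mean of probe sets (-0.05). Signals near the top of the array limit what can be seen in the brightest genes.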

Other observations

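Clock genes of the untreated livers varied moderately. Of 16 tested, 3 were in the 5% of largest SD and 12 in the top 25%. The mean of their standardised values correlated with the 3′ minus 5′ value at -0.77. BHLHE40, a repressor within the clock, had 7.45, 8.78 and 10.12 as its lowest, median and highest value, BMAL1, its central activator, 7.60, 8.17 and 8.75, and the output factor HLF 9.09, 9.71 and 10.23. BHLHE40 correlated with FASN at 0.70 over the 12 baseline livers and 0.71 in the later arrays, and at 0.15 after the 3′ minus 5′ line at baseline.

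Of the zonal markers of the lobule, the 11 pericentral genes had a median pair correlation of -0.03 at baseline and -0.01 later, and the 6 periportal genes 0.26 and 0.36. GLUL, the glutamine synthetase of the last hepatocytes before the central vein, had 9.24, 10.00 and 10.43, and the glutamate carrier SLC1A2 11.02, 11.74 and 12.39. ABCA1, the cholesterol exporter that miR-33 represses, had 7.33, 7.81 and 8.32 before treatment and differed from week 4 by -0.12 ± 0.11 (SE, limma, adjusted p 0.44) and from week 12 by -0.56 ± 0.11 (adjusted p 0.00027), with both arms averaged.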
